A study of Mus musculus with 8 samples.

Results

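The genes described are 10 that take up, bind and activate long-chain fatty acids: the acyl-CoA synthetases Acsl1, Acsl3, Acsl4, Acsl5 and Acsl6, the transport proteins Slc27a1, Slc27a3 and Slc27a4, and the binding proteins Fabp3 and Fabp5. They were taken by symbol from the array's own accessions. Of the 10, 9 had at least 1 probe, 14 probes in all, and all 9 were among the 20199 genes and unnamed probes tested. No probe was matched to Fabp5, which was not analysed here. The hearts came from male C57BL/6J mice aged 9 weeks on a CE-2 pellet diet: 4 satiated mice, which received no treatment, and 4 mice that had fasted for 2 days with free access to water. Total RNA of each heart was labelled with Cy3 and hybridised to 1 one-colour Agilent array. The arrays lay on 2 slides, each with 2 hearts of each group: replicates 1 and 2 on slide 1, replicates 3 and 4 on slide 2. The labels number the replicates as separate samples and say no more of their origin, so that the p-values speak only of the spread among them, which may be technical.

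A long-chain fatty acid that enters a cardiomyocyte is held in solution by a fatty acid binding protein and cannot be metabolised until an acyl-CoA synthetase joins it to coenzyme A, a step that consumes ATP. The resulting acyl-CoA goes either to the mitochondrion for beta-oxidation, the main energy source of the adult heart, or to glycerolipid synthesis. The ACSL enzymes sit on mitochondrial, endoplasmic reticulum, peroxisomal and lipid droplet membranes, and the SLC27 proteins, also called FATPs, carry a synthetase domain of their own and promote uptake. Fasting raises the supply of free fatty acids to the heart, where several genes of fatty acid use are known targets of the nuclear receptor PPARalpha, which binds DNA together with a retinoid X receptor.

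Satiated replicate 1 stood apart from the other 7 hearts in genes of fast skeletal muscle. Its Actn3 probe was at 3.58 on the log2 scale explained below, and the other hearts were between -4.35 and -3.28. Mylpf was at 3.31 in it and between -2.34 and -2.00 elsewhere, and Tnnt3 at 3.50 and between -4.34 and -2.53. Of the 6 fast skeletal muscle markers 5 were tested and none was called by limma, where 0 of 5 also had an unadjusted p under 0.05. Their summed level, in units of each array's 75th percentile, overlapped between the groups (151 to 234 in satiated, 154 to 237 in fasted hearts). That sum is mostly Myh4, whose probe was between 7.24 and 7.88 over all hearts. Its overlap therefore says little about Actn3, Mylpf and Tnnt3. Without satiated replicate 1 the same 2 members were called. Slc27a1 then rose by 1.43 ± 0.19 (limma adjusted p = 0.00581) and Acsl5 fell by 0.67 ± 0.13 (limma adjusted p = 0.0172). Of the other 7, the change of Acsl4 went to 0.10 and none crossed the threshold.

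Of the 9 measured genes, Slc27a1 rose and Acsl5 fell in fasted hearts, and the other 7 did not pass the test. Slc27a1 was 2.64-fold higher and Acsl5 1.53-fold lower. A gene was called where the limma p, adjusted by Benjamini-Hochberg over all 20199 tested, was under 0.05. By that rule 4073 of 20199 were called, 20.2%, with 1983 (9.82%) higher and 2090 (10.3%) lower. The share of the members called, 2 of 9, was thus near the background. The members' median log2 change was -0.18, beside -0.0042 over all tested. That median is the value of Acsl1 by its brightest probe, and the mean of the Acsl1 probes gave 0.067. It therefore gives no direction for the members as a set. In RNA of bulk tissue, fewer cells of a type and less RNA per cell cannot be told apart.

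Start site windows are shown for the 2 called genes, so that the sequence upstream of a gene that rose can be set beside that of one that fell. They come from RefSeq (GRCm38.p6), run from 250 bases before to 50 bases after an annotated start, and are written 5′ to 3′ on the + strand, which is the strand of both genes. Slc27a1 has 3 annotated starts, and the arrays do not tell which was used. Capitals mark a CCAAT box (CCAAT), a GC box (GGGCGG) or an E-box (CACGTG), searched on both strands with overlapping matches kept.
Slc27a1, first start, chr8:71568621-71568920: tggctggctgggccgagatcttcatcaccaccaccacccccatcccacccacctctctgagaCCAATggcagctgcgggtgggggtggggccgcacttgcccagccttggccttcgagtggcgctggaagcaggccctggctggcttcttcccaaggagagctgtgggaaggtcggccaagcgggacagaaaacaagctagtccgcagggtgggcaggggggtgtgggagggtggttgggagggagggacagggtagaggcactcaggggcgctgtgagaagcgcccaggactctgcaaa
Slc27a1, second start, chr8:71569347-71569646: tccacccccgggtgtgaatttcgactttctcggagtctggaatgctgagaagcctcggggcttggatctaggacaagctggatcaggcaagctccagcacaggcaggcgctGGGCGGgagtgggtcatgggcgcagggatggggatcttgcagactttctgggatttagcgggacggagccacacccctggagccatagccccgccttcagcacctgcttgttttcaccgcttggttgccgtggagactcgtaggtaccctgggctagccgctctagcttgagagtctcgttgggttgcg
Slc27a1, start furthest downstream, chr8:71570344-71570643: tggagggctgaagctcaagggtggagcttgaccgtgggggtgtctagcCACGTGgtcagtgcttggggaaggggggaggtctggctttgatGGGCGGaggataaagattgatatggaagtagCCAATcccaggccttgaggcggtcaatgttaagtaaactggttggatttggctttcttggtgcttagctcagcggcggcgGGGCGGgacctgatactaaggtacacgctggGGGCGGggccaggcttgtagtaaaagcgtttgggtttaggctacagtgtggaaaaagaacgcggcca
Acsl5, chr19:55253119-55253418: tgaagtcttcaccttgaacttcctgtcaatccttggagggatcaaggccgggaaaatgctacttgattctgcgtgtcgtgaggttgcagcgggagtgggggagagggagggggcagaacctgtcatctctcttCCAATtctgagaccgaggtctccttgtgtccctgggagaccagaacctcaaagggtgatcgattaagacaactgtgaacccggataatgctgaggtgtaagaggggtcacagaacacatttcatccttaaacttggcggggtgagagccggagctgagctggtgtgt

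In these windows Acsl5 held 1 CCAAT box and no GC box. Slc27a1 held 1 CCAAT box at its first start, 1 GC box at its second, and 3 GC boxes, 1 CCAAT box and 1 E-box at the one furthest downstream. Of all 32851 windows of this length in the table, 37.4% held a CCAAT box, 35.7% a GC box and 7.15% an E-box. The PPAR response element was searched as AGGTCANAGGTCA, a direct repeat of the receptor half-site AGGTCA with 1 base between. It matched 0.0396% of all windows, and 0.381% with any base allowed at the fourth position of each half-site (AGGNCANAGGNCA). Neither form was in any of the 14 windows found for 9 of the 10 members. The half-site alone, in 16.3% of all windows, was in 1 of the 14, the first of 3 starts of Acsl6, and it is part of the repeat. The TATA box TATAAA (13.6% of all windows) and the FoxO site TGTTTAC (3.65%) were in none of the 14. A window without these letters says nothing about sites elsewhere. The members' windows differed in base composition, up to 76.0% G and C at the second Acsl6 start, beside a median of 52.7% over all windows. Acsl5 was at 53.0% and the starts of Slc27a1 were at 65.7%, 60.7% and 56.3%.

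All levels below are log2 of a probe's processed signal minus the 75th percentile of its array, so that a heart at 0 has the probe at that percentile. Levels of different probes are not compared, since probes differ in how brightly they label. Differences are fasted minus satiated on the same scale, with standard errors (SE) from limma.

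**Figure D1:**
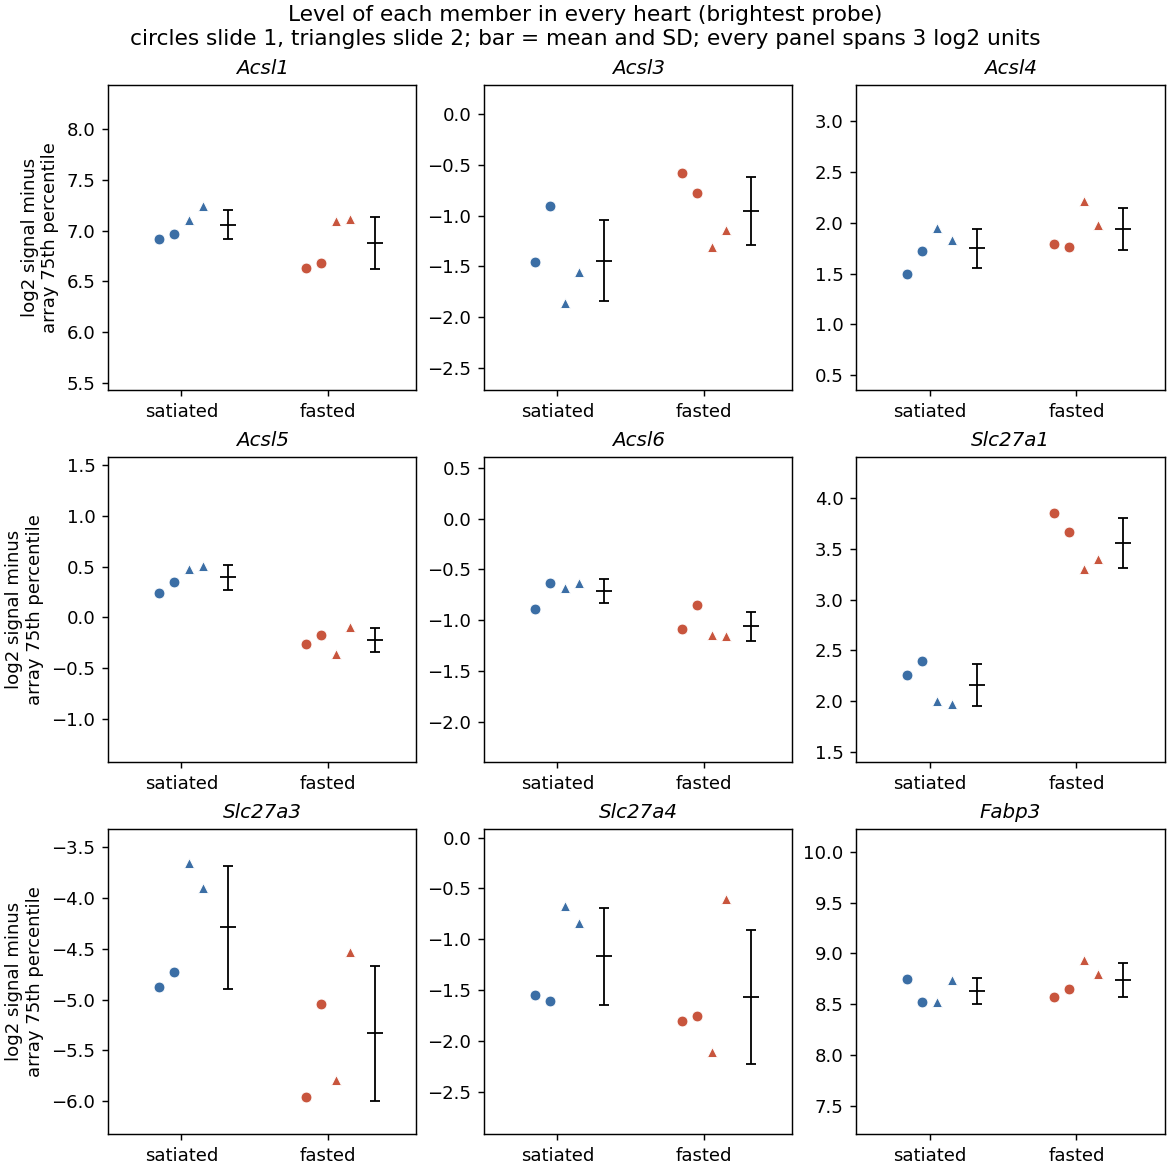
Level of each of the 9 measured members in every heart, as log2 signal minus the array's 75th percentile, in satiated (blue) and fasted (red) hearts, by the brightest probe. Circles are slide 1 and triangles slide 2, bars are the mean and SD (n = 4 per group), and every panel spans 3 log2 units. The groups are apart for Slc27a1 and Acsl5 and overlap for the other 7.

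The ACSL enzymes activate fatty acids. Acsl1, the main long-chain acyl-CoA synthetase of heart and fat, was at 6.92, 6.96, 7.11 and 7.24 in satiated replicates 1 to 4 and at 6.63, 6.69, 7.09 and 7.11 in fasted replicates 1 to 4. The groups overlapped, and both were higher on slide 2. The difference was -0.18 ± 0.16 (SE, n = 4 per group) with a limma adjusted p of 0.471. It was -0.29 on slide 1, where both fasted hearts lay below both satiated ones, and -0.074 on slide 2.

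Acsl1 had a further pair of kept probes, and these went the other way. Probe A_52_P597618 was at 2.71, 2.73, 2.56 and 2.83 in satiated and at 2.95, 2.87, 2.96 and 2.99 in fasted hearts, so that every fasted heart lay above every satiated one. It differed by 0.24 ± 0.11, with a limma adjusted p of 0.156 in a fit of every kept probe on its own. Probe A_51_P463452 differed by 0.14 ± 0.12, with overlapping groups and a limma adjusted p of 0.440. The mean of the 3 probes differed by 0.067. The gap in change between the brightest probe A_51_P496432 and A_52_P597618 was 0.42, of the same sign on both slides (0.48 and 0.36). An exact permutation test over the hearts gave p = 0.0286 for that gap, the smallest p that 4 against 4 allows, and 0.0476 after adjustment over the 5 pairs of probes of 1 gene. The brightest probe against A_51_P463452 gave a gap of 0.32 that did not pass (exact permutation p = 0.0571, adjusted 0.0714). A gap of only 0.097 between A_51_P463452 and A_52_P597618 passed like that of 0.42 (exact permutation p = 0.0286, adjusted 0.0476). The adjusted value of 0.0476 depends on how many of the 5 pairs tie at 0.0286, and it does not measure the size of a gap. These pairs were tested after the values had been seen. The files give neither the probes' sequences nor the transcripts or exons they match, so no direction is given for Acsl1.

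Acsl4, which prefers arachidonic acid and other polyunsaturated fatty acids, also had probes that disagreed. Its brightest probe, A_52_P78203, was at 1.497, 1.724, 1.95 and 1.827 in satiated and at 1.79, 1.76, 2.21 and 1.98 in fasted hearts. The groups overlapped across the slides, though within each slide both fasted hearts lay above both satiated ones. The difference was 0.19 ± 0.15 with a limma adjusted p of 0.436. Its other probe, A_51_P268154, was at -1.11, -1.28, -0.97 and -1.11 in satiated and at -0.28, -0.68, 0.34 and -0.062 in fasted hearts. Here all 4 fasted hearts were above all 4 satiated ones, and the fasted hearts were spread more widely. That probe rose by 0.95 ± 0.21, a 1.93-fold difference, with a limma adjusted p of 0.0154 among all kept probes fitted on their own, of which 21.1% were called. It passed without each heart in turn, with adjusted p from 0.00717 to 0.0475. The gap between the Acsl4 probes was 0.76 (0.55 on slide 1, 0.97 on slide 2), with an exact permutation p of 0.0286, or 0.0476 adjusted over the 5 pairs. This gap and the one of 0.42 in Acsl1 passed without satiated replicate 1 or fasted replicate 3. Without any 1 of the other 6 hearts the adjusted exact p was between 0.0714 and 0.143 for both, where 4 against 3 hearts cannot give less than 0.0286 before adjustment. By the mean of both probes Acsl4 differed by 0.57 ± 0.17 and narrowly did not pass (limma adjusted p = 0.0502). The choice of probe therefore decided whether Acsl4 counted as higher.

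**Figure D2:**
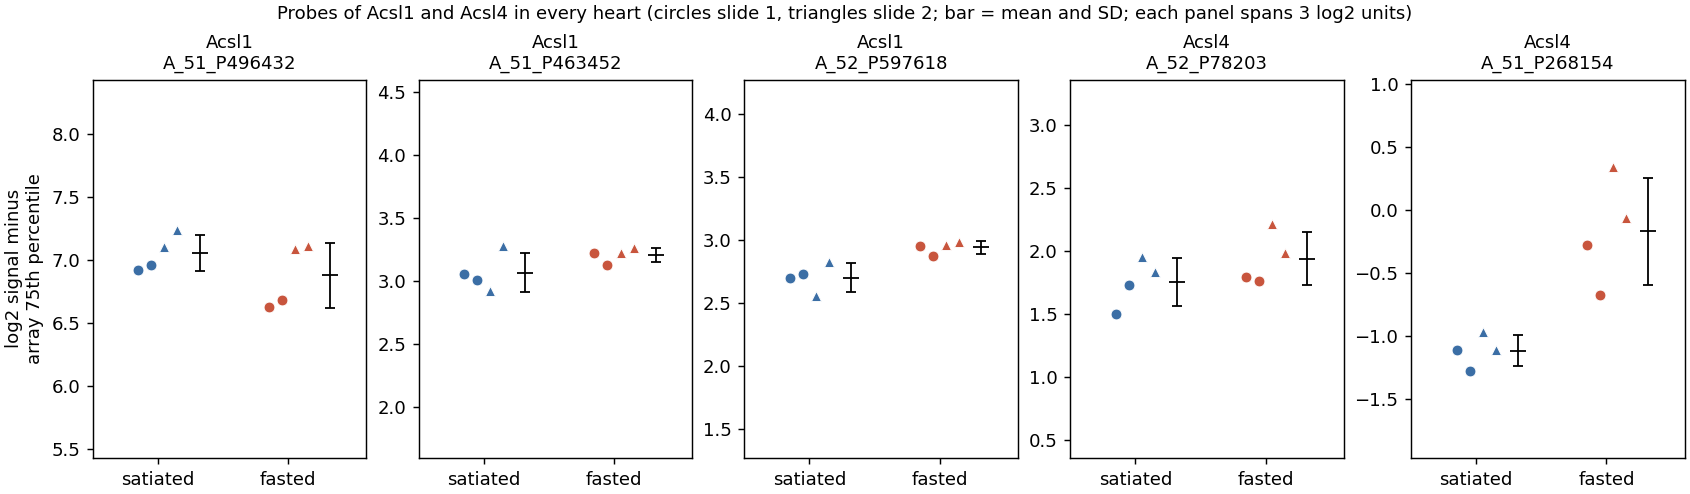
Level of each kept probe of Acsl1 and Acsl4 in every heart, as log2 signal minus the array's 75th percentile, with the mean and SD of 4 hearts per group. Circles are slide 1 and triangles slide 2, and each panel spans 3 log2 units. The fasted hearts lie above the satiated ones without overlap for A_52_P597618 of Acsl1 and A_51_P268154 of Acsl4, and overlap them for the other 3 probes.

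Acsl5, a synthetase of mitochondrial and endoplasmic reticulum membranes, had 1 probe. It was at 0.24, 0.35, 0.48 and 0.51 in satiated replicates 1 to 4 and at -0.27, -0.18, -0.36 and -0.092 in fasted replicates 1 to 4. All 4 fasted hearts lay below all 4 satiated ones. Acsl5 fell by 0.62 ± 0.12 on the log2 scale, that is 1.53-fold lower, with a limma adjusted p of 0.00923, and it ranked 1475 by p among all tested. The difference was -0.52 on slide 1 and -0.72 on slide 2. The call held without each heart in turn, with limma adjusted p from 0.0157 to 0.0348, and was lost in the 2 against 2 hearts of a single slide (limma adjusted p of 0.0692 on slide 1 and 0.118 on slide 2).

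Acsl6, known mainly from brain and red cells, was at -0.89, -0.63, -0.69 and -0.63 in satiated and at -1.09, -0.85, -1.15 and -1.15 in fasted hearts. The groups overlapped only because satiated replicate 1 lay below fasted replicate 2. The difference was -0.35 ± 0.12, with a limma adjusted p of 0.0782. It passed once the slide was entered as a block (limma adjusted p = 0.0394, in a fit that called 35.5% of all tested). It also passed with a replicate block (limma adjusted p = 0.0478, in a fit that called 32.1%). A second Acsl6 probe was not well above background on any array and was left out.

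Acsl3, a synthetase of the endoplasmic reticulum and lipid droplets, was at -1.46, -0.90, -1.86 and -1.55 in satiated and at -0.58, -0.78, -1.31 and -1.14 in fasted hearts. Slide 2 was lower in both groups, and within each slide both fasted hearts lay above both satiated ones. The difference was 0.49 ± 0.24 with a limma adjusted p of 0.192, 0.50 on slide 1 and 0.48 on slide 2. With a slide block the SE was 0.14 and Acsl3 passed (limma adjusted p = 0.0356).

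The SLC27 family gave the largest change among the members. Slc27a1, also called FATP1, the insulin-responsive transport protein of muscle and fat, was at 2.26, 2.40, 2.00 and 1.97 in satiated replicates 1 to 4 and at 3.85, 3.67, 3.30 and 3.40 in fasted replicates 1 to 4. All fasted hearts lay above all satiated ones, and slide 2 was lower in both groups. Slc27a1 rose by 1.40 ± 0.17 on the log2 scale, 2.64-fold, with a limma adjusted p of 0.00149, rank 320 by p among all tested. The difference was 1.43 on slide 1 and 1.37 on slide 2. The call held without each heart in turn, with limma adjusted p from 0.00222 to 0.00721, and on slide 1 alone (0.0236). On slide 2 alone the limma adjusted p was 0.0721.

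Slc27a3, also called FATP3, was at -4.87, -4.73, -3.65 and -3.90 in satiated and at -5.96, -5.04, -5.79 and -4.53 in fasted hearts. Within each slide both fasted hearts lay below both satiated ones. The probe was well above background in 4 of 4 satiated and 1 of 4 fasted hearts. The difference was -1.04 ± 0.39 with a limma adjusted p of 0.0996. It passed with a slide block (limma adjusted p = 0.0452), while with normexp background correction the difference was -0.10.

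Slc27a4, also called FATP4, was at -1.55, -1.61, -0.67 and -0.84 in satiated and at -1.81, -1.75, -2.11 and -0.60 in fasted hearts. Fasted replicate 3 was the lowest of all 8 hearts and fasted replicate 4 the highest, both on slide 2. The difference was -0.40 ± 0.36 with a limma adjusted p of 0.487. A dimmer probe of the gene, well above background in 2 hearts of each group, differed by -0.20 ± 0.26.

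Fabp3, the heart-type binding protein that carries fatty acids through the cardiomyocyte's cytosol, was at 8.75, 8.53, 8.52 and 8.74 in satiated and at 8.57, 8.65, 8.94 and 8.80 in fasted hearts. The groups overlapped. The difference was 0.11 ± 0.13 with a limma adjusted p of 0.617. It was -0.029 on slide 1 and 0.24 on slide 2.

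**Figure D3:**
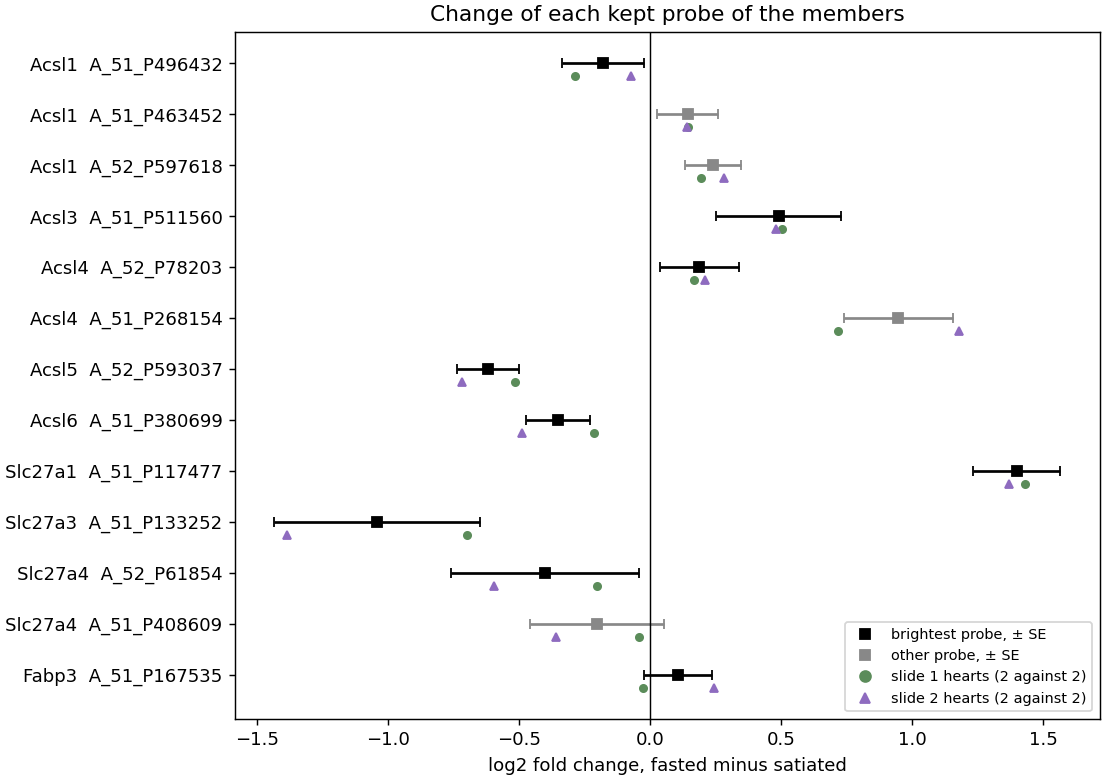
Log2 fold change, fasted minus satiated, of the 13 kept probes of the members (squares, ± SE, 4 against 4 hearts), black for each gene's brightest probe and grey for its others. Below each square are the values of slide 1 (circle) and slide 2 (triangle), 2 against 2 hearts each. Slc27a1 lies at 1.40 with both slides alike, Acsl5 at -0.62, and the probes of Acsl1 lie on both sides of 0.

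By the brightest probe, 2 of the 9 members had groups that did not overlap, beside 27.6% of all tested with a value in every heart. With a slide block Slc27a1 and Acsl3 were called higher and Acsl5 and Acsl6 lower, beside 35.5% of all tested. Slc27a3 also passed there as lower, 5 of 9 in all, but it met the filter on dim probes through the satiated hearts and gives no support to that count. With a replicate block 3 of 9 were called, Slc27a1, Acsl5 and Acsl6, beside 32.1%.

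Whether members of 1 family changed unequally was tested on the difference between their levels in each heart, over 13 pairs. The change in Slc27a1 exceeded that in Slc27a3 by 2.44, a size that rests on Slc27a3 values not well above background in 3 of 4 fasted hearts. Slc27a3 met the filter on dim probes through the satiated hearts, so its pairs give no support to the counts of pairs below. Within the ACSL family the change in Acsl3 exceeded that in Acsl5 by 1.11 and that in Acsl6 by 0.84, and the change in Acsl4 exceeded that in Acsl5 by 0.81. The change in Acsl1 exceeded that in Acsl5 by 0.44 and was smaller than that in Acsl4 (a difference of -0.37). These 6 pairs reached 0.0286, the smallest exact permutation p that 4 against 4 hearts allow, and after adjustment over the 13 pairs the exact p was 0.0619 for each. No pair therefore passed at 0.05 with all hearts or without any 1 of them, and 6 of 13 had an unadjusted p under 0.05. With 6 pairs at the smallest p this could not be otherwise, since over 13 pairs the adjusted p of so few ties stays above 0.05. Whether any pair passes thus depends on how many tie, and the lack of a pass says nothing about the size of a difference. Slc27a1 against Slc27a4 differed by 1.80 with an exact permutation p of 0.0571 (0.0743 adjusted), fasted replicate 4 being the heart in which Slc27a4 was high. With the mean of a gene's kept probes in place of the brightest, 8 pairs passed, a count that depends on such ties in the same way.

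For the member with the smallest p in each family, the 3 genes whose centred log2 values lay nearest over the 8 hearts were sought among 13794 with a symbol. They were chosen by these values, so their changes are a description. Nearest to Slc27a1 were Timp1, an inhibitor of matrix metalloproteinases, with a root mean square difference of 0.143 log2 units and a change of 1.5, then Igf2bp2, an RNA-binding protein, at 0.150 with 1.22, and Ccdc96 at 0.178 with 1.25. Near Acsl5 lay Dip2c at 0.0452 with a change of -0.63 and Mapk10, a JNK kinase, at 0.0669 with -0.54. Their other probes differed from these: a second Dip2c probe went the other way, at 0.24, and a second Mapk10 probe was at -1.77. Nearest to Fabp3 were Atp5b, the beta subunit of ATP synthase, at 0.0340, Myh8, a myosin heavy chain, at 0.0443, and Atg14, an autophagy factor, at 0.0533. The changes of these last 3 were between 0.056 and 0.11 and were below 0 on slide 1 alone.

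Other enzymes and carriers of the same kind were read from a list of 23 further synthetases, transporters and binding proteins, of which 13 were tested. Of these, 3 rose, 2 fell and 8 did not pass, with a median change of 0.13. Without satiated replicate 1, 2 rose and 2 fell. Over all 20199 tested, 20.2% were called by limma, 9.82% higher and 10.3% lower. The counts of the lists below stand beside the same shares. Acsm5, a medium-chain synthetase of mitochondria, was between -1.89 and -1.67 in satiated and between -0.93 and -0.47 in fasted hearts and rose by 1.11 ± 0.14 (limma adjusted p = 0.00174). Acsf2, another medium-chain enzyme, rose by 0.60 ± 0.12 (limma adjusted p = 0.00938), and Acsm3 also rose. Acsf3, the mitochondrial malonyl-CoA synthetase, was between 3.16 and 3.28 in satiated and between 2.64 and 2.75 in fasted hearts and fell by 0.50 ± 0.098 (limma adjusted p = 0.0107). Fabp12 fell by 0.82 ± 0.15 (limma adjusted p = 0.00769), but it was well above background in 2 hearts of each group, and with normexp background correction its difference was -0.022. The remaining 10 of the list were too dim to be tested.

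Fatty acids reach the cell surface by lipolysis and membrane carriers, a step covered by 12 genes, all tested. Of these, 2 rose (2 also without satiated replicate 1), none fell by the limma test, and the median was 0.11; 5 had an unadjusted p under 0.05. Cd36, the fatty acid translocase, was between 5.08 and 5.79 in satiated and between 5.95 and 6.36 in fasted hearts and rose by 0.71 ± 0.18 (limma adjusted p = 0.0289). Gpihbp1, which holds lipoprotein lipase on capillary endothelium, rose by 0.72 ± 0.22 (limma adjusted p = 0.0498). The Cd36 call was lost without fasted replicate 1, fasted replicate 2, satiated replicate 3 or satiated replicate 4 (limma adjusted p of 0.0739, 0.0665, 0.0618 and 0.0800). The Gpihbp1 call was lost without satiated replicate 2, 3 or 4 or fasted replicate 1, 2 or 3 (limma adjusted p between 0.0803 and 0.128). With a slide block 5 were higher and 1 lower, beside 35.5% of all tested called. With a replicate block 4 were higher, beside 32.1%.

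Downstream of activation, acyl-CoA is bound, oxidised, esterified or hydrolysed. Among 7 acyl-CoA binding proteins, all tested, 1 rose and none fell, with a median of 0.24 and 1 with an unadjusted limma p under 0.05: Acbd4, a tail-anchored acyl-CoA binding protein, rose by 0.71 ± 0.11 (limma adjusted p = 0.00430). With a slide block 2 of these were called, all higher, beside 35.5% of all tested. With a replicate block 3 were called, all higher, beside 32.1%. Among 11 genes for entry into beta-oxidation, 1 rose and none fell, with a median of 0.030 and 1 unadjusted limma p under 0.05. That gene was Acadl, the long-chain acyl-CoA dehydrogenase, which rose by 0.39 ± 0.10 (limma adjusted p = 0.0323). Its call was lost without satiated replicate 1, 2, 3 or 4 or fasted replicate 1 or 4 (limma adjusted p between 0.0618 and 0.0875). With a slide block 2 genes were higher and 1 lower, and with a replicate block 3 were higher, beside the same 35.5% and 32.1% of all tested.

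Among 24 genes for glycerolipid synthesis from acyl-CoA, 22 were tested, of which 1 rose, 3 fell and 18 did not pass, with a median of -0.11. Mogat2, counted among the 3, met the filter on dim probes through the satiated hearts. Lpcat3, which puts polyunsaturated acyl chains into phosphatidylcholine, was between 1.07 and 1.41 in satiated and between 1.73 and 2.10 in fasted hearts and rose by 0.70 ± 0.13 (limma adjusted p = 0.00832). Mogat2, a monoacylglycerol acyltransferase, was well above background in 4 of 4 satiated and 0 of 4 fasted hearts and was at least 1.25-fold lower in fasted hearts. That bound compares the satiated mean with the lowest signal well above background on each fasted array. Its limma adjusted p was 0.00944, and 0.465 with normexp background correction, where the difference was -0.19. Mboat2, a lysophospholipid acyltransferase, fell by 0.57 ± 0.14 (limma adjusted p = 0.0261), a call lost without satiated replicate 2, 3 or 4 or fasted replicate 1 or 4 (limma adjusted p of at most 0.0775). The count was 3 without satiated replicate 1 and 2 without satiated replicate 2, 3 or 4 or fasted replicate 4. A slide block gave 3 higher and 6 lower, beside 35.5% of all tested called. A replicate block gave 5 higher and 6 lower, beside 32.1%.

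The thioesterases, which split acyl-CoA back into free fatty acid and coenzyme A, held the largest change of these lists. Of 14 genes 10 were tested, with a median of -0.16. Of these, 4 rose, 2 fell and 4 did not pass, beside 20.2% called over all tested. Without satiated replicate 1, 3 rose and 2 fell. Acot1, the cytosolic enzyme, was at 3.31, 3.58, 2.71 and 3.73 in satiated and at 6.11, 6.03, 6.34 and 6.32 in fasted replicates 1 to 4, without overlap. It rose by 2.87 ± 0.22, 7.30-fold (limma adjusted p = 0.000333). Acot2, the mitochondrial enzyme, rose by 1.12 ± 0.18 (limma adjusted p = 0.00464). Both have near-identical paralogs in the Acot1 to Acot6 cluster, and whether their probes tell these apart was not tested. Acot11 fell by 0.77 ± 0.16 and Them4 by 0.74 ± 0.16 (limma adjusted p of 0.0139 and 0.0153).

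Among 8 PPAR and retinoid X receptors and their coactivators, all tested, 1 rose and 1 fell, with a median of 0.32. Pparg, the receptor best known from fat cells, was between 1.601 and 1.849 in satiated and between 2.30 and 2.77 in fasted hearts and rose by 0.77 ± 0.14 (limma adjusted p = 0.00687). Rxrg, a retinoid X receptor of muscle, was between 4.68 and 5.09 in satiated and between 2.77 and 3.81 in fasted hearts and fell by 1.48 ± 0.23, 2.78-fold lower (limma adjusted p = 0.00418). Ppara did not pass, at -0.19 ± 0.19 (limma adjusted p = 0.520). Both calls held without satiated replicate 1. A slide block gave 2 higher and 2 lower, beside 35.5% of all tested called. A replicate block gave 3 higher and 2 lower, beside 32.1%.

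**Figure D4:**
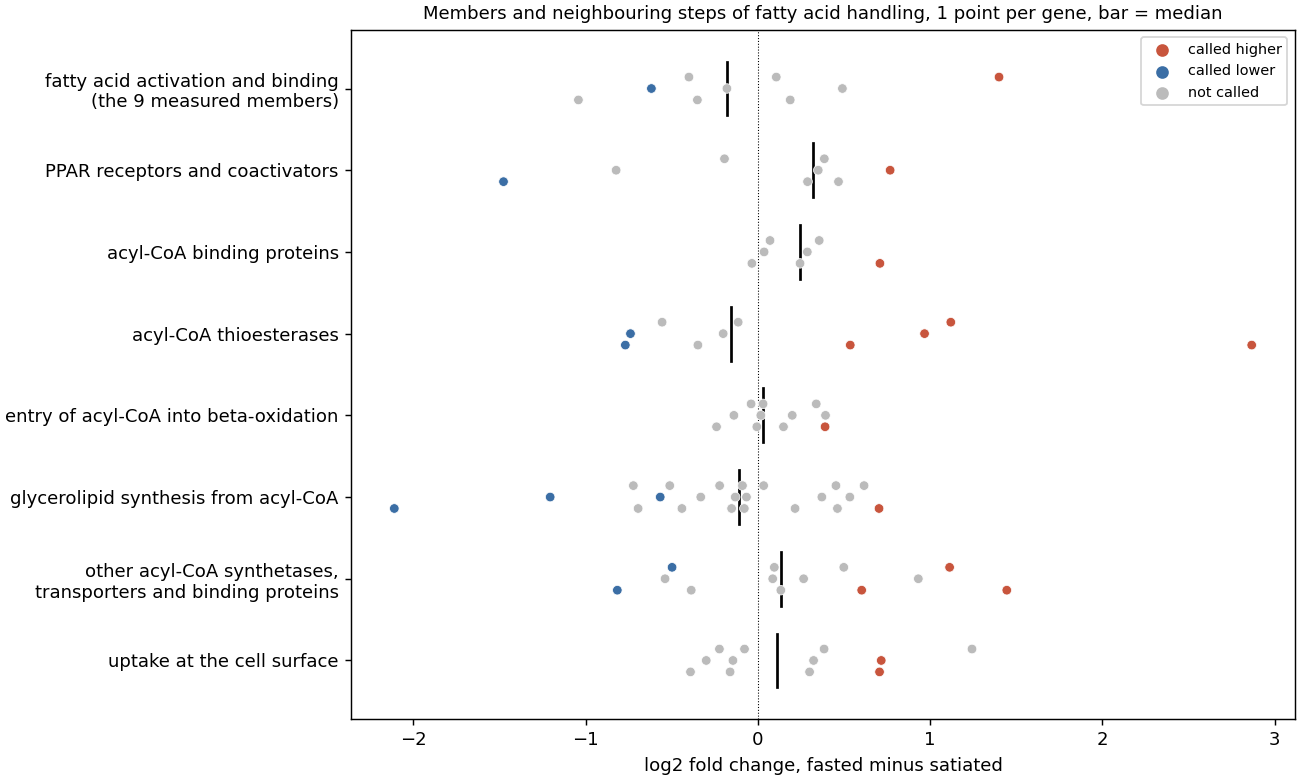
Log2 fold change, fasted minus satiated, of the 9 measured members and of the tested genes of 7 lists of fatty acid handling, 1 point per gene (red called higher, blue called lower, grey not called), with the median of each list as a bar. The members' median lies at -0.18, the value of Acsl1 by its brightest probe, and Acot1, at 2.87, lies furthest to the right.

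Cell type markers were summed on the linear scale for each heart, in units of the array's 75th percentile. The 9 cardiomyocyte markers summed to between 2290 and 3036 in satiated and between 2105 and 2999 in fasted hearts. Of these 9, 8 did not pass and Actc1, cardiac alpha-actin, was 3.13-fold lower in fasted hearts (limma adjusted p = 0.000354). The adipocyte markers, 5 of 6 tested, summed to between 31.3 and 103 in satiated and between 46.2 and 82.9 in fasted hearts, and the 7 capillary endothelium markers to between 33.9 and 57.0 and between 39.6 and 47.8. Both overlapped. The 5 fibroblast markers summed to between 181 and 193 in satiated and between 215 and 272 in fasted hearts without overlap, yet 1 of the 5 was called higher and 3 were called lower by limma. That sum is mostly Dcn, the 1 called higher. On the log2 scale Dcn was between 7.14 and 7.31 in satiated and between 7.65 and 8.02 in fasted hearts. Lum, Tcf21 and Col1a1 were called lower and Pdgfra was not called, so the sum does not describe the list. The 4 nerve markers summed to between 1.6 and 1.85 in satiated and between 1.91 and 2.005 in fasted hearts, also without overlap, and none was called by limma, with 1 unadjusted p under 0.05. The part of any of these cell types in the changes of Slc27a1 and Acsl5 was not tested. On slide 1 between 66.5% and 68.9% of spots were well above background and on slide 2 between 54.4% and 55.6%, and no spot was saturated. Fasted replicate 3 stood furthest from its group, with a mean correlation of 0.974 to the other fasted hearts. Without fasted replicate 3 the change was 1.49 for Slc27a1 and -0.57 for Acsl5.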

How the data were processed

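Intensities deposited as scanner tables are spot signals from which Agilent Feature Extraction had subtracted background, with annotation of build mm9, per the file headers. These name version 10.5.1.1 on slide 1 and 10.7.3.1 on slide 2, while the submitters' processing notes name 9.1. Slide, scan and version cannot be told apart from one another. Linear ratios deposited for the whole series, made in a way not given in the sources used here, served as an alternative. For 99.7% of probes they differed from the scanner values by a factor per array and a constant per probe (within 0.01 on the log2 scale). What they were centred on is unknown, and their column medians were 0.860 to 1.02.

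From the deposited intensities, log2 values minus each array's 75th percentile were computed, without control and outlier spots. Spots of a probe were averaged, and a probe was kept where at least 4 arrays of 8 had it well above background (26476 of 41174). Accessions gave a RefSeq symbol (GRCm38.p6) for 26690 probes and none for 14484. All 14 probes of the members had the same symbol on both slides, although 1782 accessions differ between the slides' annotations. Each gene was represented by its brightest kept probe. The test was limma's (3.58.1, R 4.3.3 and data.table, version 1.17.8) lmFit with eBayes, two-sided, with Benjamini-Hochberg adjustment. It was checked on simulated data with 50 genes changed at each size, far fewer than were called in the hearts. There 0% of changes of 0.5 log2 units were recovered, 46% of 1, 82% of 2 and 90% of 3. A gene that did not pass may thus still have changed. The number of arrays limits the precision. Figures were drawn with matplotlib 3.10.9.

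The members and lists were chosen with earlier results of these data known. The genes named are all members, up to 2 called genes per list and direction by smallest p, and the 3 nearest profiles per family, of which 1 is not reported here. Acsm3, Ppara, second probes, Actc1 and markers of skeletal muscle, fibroblasts and adipocytes were named beyond that rule, after their values were seen. Same-numbered satiated and fasted hearts deviated together from their group means (correlations 0.439, 0.475, 0.331 and 0.493). The main fit held the group only and did not pair the hearts, and the number was a block in an alternative. The number follows the slide, and satiated replicate 1 correlated more with fasted replicate 2 (0.522). Likewise satiated replicate 2 correlated more with fasted replicate 1 (0.514), and satiated replicate 3 with fasted replicate 4 (0.431). Satiated replicate 4 correlated most with its own number. Alternatives were blocks for slide and replicate number, each slide alone, other background correction, scaling, filters and probe choice, array weights, the deposited ratios, and each heart left out. The normexp correction (offset 50) used median spot signals. That correction, the comparisons among probes of 1 gene and the pairs without a heart were added after seeing the data.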

Additional observations from a re-analysis of the deposited data

Results flagged for a closer look

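In 90 groups of 4 hearts, taken from the probes of the members, of the list genes and nearest genes, of the fast skeletal muscle markers and of Actc1, 4 held a heart far from the others. Chance flags about 1 in 20 such groups. In satiated replicate 1 Mylpf was at 3.315, with the nearest satiated heart at -2.174. Tnnt3 was at 3.505 in the same heart, with the nearest at -3.92, and Actn3 at 3.581, with the nearest at -3.628. In fasted replicate 4 Mylpf was at -2.253, with the nearest fasted heart at -2.034. No member's probe was among these 4.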

How the results depend on the processing

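Slc27a1 stayed higher in every alternative and was called in 19 of 20, the exception being slide 2 alone. Acsl5 stayed lower in every alternative and was called in 18 of 20, the exceptions being each slide alone. The count of members called was 2 without each heart in turn. It was 5 with the slide as a block, 3 with the replicate block, 3 with array weights (Slc27a3 gained) and 3 with every probe on its own (Acsl4 gained). It was 1 on slide 1 alone and 0 on slide 2 alone (limma, each slide holding 2 against 2 hearts). Slc27a3, counted with the slide block and with array weights, met the filter on dim probes through the satiated hearts. It gives no support to either count. Over all genes, 4073 calls became 7177 with the slide as a block, 6489 with the replicate block, 1883 on slide 1 alone, 1 on slide 2 alone and 2225 without a filter on dim probes, where 32701 were tested. They were between 2495 (without satiated replicate 4) and 3690 (without fasted replicate 3) with 1 heart left out, and 2522 without satiated replicate 2. With the mean of kept probes, 8 of 13 pairs of members passed in place of 0. By the brightest probe, 0 also passed without each heart in turn. Pairs with Slc27a3 give no support to the count of 8. Whether any pair passes depends on how many tie at the smallest exact permutation p.

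Directions turned for values near 0 or with disagreeing probes, and the cause was not tested. Acsl1 was at -0.18 by its brightest probe, 0.067 by the mean of its probes, and 0.14 and 0.24 by the others. Dip2c was at 0.24 by its other probe. On slide 1 alone Fabp3 was at -0.029, Atp5b at -0.041, Myh8 at -0.088 and Atg14 at -0.044. With array weights Atp5b was at -0.031 and Myh8 at -0.073, and with quantile normalization Myh8 was at -0.018. Without 1 heart Myh8 ranged from -0.020 to 0.13. Signal over background limits Slc27a3, Mogat2 and Fabp12, whose changes were -0.10, -0.19 and -0.022 with normexp correction. Among list genes, quantile normalization and the fit without a filter each ended the calls of Cd36, Gpihbp1 and Acadl. Median scaling and the deposited ratios each ended those of Acadl and Mboat2, the fit without a filter those of Acsf3 and Mboat2, and normexp that of Acsf2.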
